A study of Mus musculus with 12 samples.

Results

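Neutrophil granule genes encode the proteins that a neutrophil packs into its granules while it matures in the bone marrow. The 10 genes described here were Mpo, Elane and Prtn3 of the primary class, Camp, Ngp, Ltf, Mmp8 and Chil3 of the secondary class, Mmp9 of the tertiary class, and Lyz2, whose product, lysozyme, lies in several classes. They were taken as the probe sets that the platform annotation pairs with 1 of these symbols, and where a gene had several, the one that averaged highest on the log2 scale over 12 arrays stood for it. All 10 of 10 had such a probe set, out of 18193 genes with a single-symbol probe set in the series, and 7 passed the filter on low values. To pass, a signal had to exceed the median of its array on 3 or more of 12 arrays. The tertiary class held 1 gene, so its values are those of Mmp9.

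Granules form in sequence. Primary (azurophil) granule genes are transcribed in promyelocytes, secondary (specific) granule genes in the later myelocytes and metamyelocytes, and tertiary (gelatinase) granule genes later still. Circulating neutrophils carry the proteins and little of the primary granule transcripts. Factors of the C/EBP family and PU.1 are known regulators of these genes.

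Whole lung was taken 8 h after surgery from mice aged 8 to 10 weeks, in 4 groups of 3 arrays. The groups were PPTA-knockout-labelled mice after cecal ligation and puncture (CLP), which lets gut bacteria into the abdomen, PPTA-knockout-labelled mice after sham surgery, wild-type mice after CLP and wild-type mice after sham surgery. The labels give the strain of the wild-type mice as Balb/c and give none for the knockout-labelled mice, so strain and genotype cannot be told apart. The labels speak of triplicates but not of separate animals, and p-values here thus rest on a spread that could be technical in part. Tac1, formerly PPTA, encodes the precursor of substance P, a neuropeptide of sensory nerves. The study set sepsis in lungs with this gene against sepsis in lungs without it.

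The stronger Tac1 probe set went against the labels. This probe set, 1416783_at, read 441.7, 336.8 and 461.6 in knockout-labelled CLP and 379.5, 441.4 and 530.3 in knockout-labelled sham, compared with 16.1, 4.0 and 12.4 in wild-type CLP and 5.3, 8.3 and 2.8 in wild-type sham. Every direction below is therefore that of the labels. Array 3 of knockout-labelled sham stood apart: correlations within that group were 0.937 to 0.981, against 0.983 to 0.985 within wild-type sham. The mean of 7 monocyte markers on that array was 1.67 log2 units above wild-type sham, and 0.06 and 0.26 on the other arrays of its group. Values are given without it too, for all 7 granule genes tested and for some of the counts and medians of gene lists that moved with it. A list value given only with this array may move without it. The 7 alveolar type 2 cell markers of the lung were at a summed signal of 43705 to 51848 on all arrays. Single markers did differ by genotype. After CLP 3 of 7, Sftpc, Sftpb and Abca3, were lower in knockout-labelled lung, where 16.9% of all probe sets were lower. After sham 2, Sftpc and Sftpb, were lower, where 3.86% were. Abca3 fell after CLP in knockout-labelled lung (-0.55, limma adjusted p = 0.0014). The calls of Sftpc and Sftpb were lost without the filter (adjusted p from 0.056 to 0.15).

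The promoter sequences of the primary genes and of the secondary genes with the largest changes are shown because both classes are compared below. They are the 250 bases before the annotated transcript start, 5′ to 3′ on the gene's strand, from RefSeq on GRCm38.p6. Of 10 genes, 9 had an entry, and Mmp9 had none. The windows were Mpo at chr11:87793534-87793783 (plus strand), Elane at chr10:79886062-79886311 (plus strand) and Prtn3 at chr10:79879417-79879666 (plus strand) for the primary class. Capitals mark TTNNGCAA, letters of the C/EBP type, or GAGGAA, letters of the PU.1 type, on either strand.
Mpo: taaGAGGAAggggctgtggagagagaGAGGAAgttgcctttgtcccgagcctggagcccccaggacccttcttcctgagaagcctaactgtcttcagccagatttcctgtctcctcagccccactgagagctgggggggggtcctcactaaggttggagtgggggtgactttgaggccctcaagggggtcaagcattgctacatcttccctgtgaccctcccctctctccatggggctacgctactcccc
Elane: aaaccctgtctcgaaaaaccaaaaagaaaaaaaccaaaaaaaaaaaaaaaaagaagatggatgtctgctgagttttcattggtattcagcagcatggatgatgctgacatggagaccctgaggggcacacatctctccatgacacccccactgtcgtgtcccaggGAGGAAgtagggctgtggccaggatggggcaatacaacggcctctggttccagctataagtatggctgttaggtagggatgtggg
Prtn3: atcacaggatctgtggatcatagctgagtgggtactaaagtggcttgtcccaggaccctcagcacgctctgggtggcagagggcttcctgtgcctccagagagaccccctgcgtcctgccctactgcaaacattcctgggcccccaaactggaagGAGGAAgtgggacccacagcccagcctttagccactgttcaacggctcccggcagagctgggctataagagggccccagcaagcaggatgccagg

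The secondary windows were Camp at chr9:109849457-109849706 (minus strand), Ngp at chr9:110419558-110419807 (plus strand), Ltf at chr9:111019042-111019291 (plus strand) and Mmp8 at chr9:7558179-7558428 (plus strand), with the same marking.
Camp: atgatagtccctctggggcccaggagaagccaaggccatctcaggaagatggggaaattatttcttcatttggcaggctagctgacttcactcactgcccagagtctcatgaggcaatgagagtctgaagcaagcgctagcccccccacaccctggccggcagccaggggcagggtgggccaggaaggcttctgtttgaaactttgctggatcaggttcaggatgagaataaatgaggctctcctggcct
Ngp: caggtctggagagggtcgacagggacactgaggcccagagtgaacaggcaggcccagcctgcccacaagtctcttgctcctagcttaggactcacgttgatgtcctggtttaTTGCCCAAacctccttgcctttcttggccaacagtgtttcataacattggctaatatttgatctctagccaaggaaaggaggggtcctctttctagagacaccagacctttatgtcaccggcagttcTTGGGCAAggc
Ltf: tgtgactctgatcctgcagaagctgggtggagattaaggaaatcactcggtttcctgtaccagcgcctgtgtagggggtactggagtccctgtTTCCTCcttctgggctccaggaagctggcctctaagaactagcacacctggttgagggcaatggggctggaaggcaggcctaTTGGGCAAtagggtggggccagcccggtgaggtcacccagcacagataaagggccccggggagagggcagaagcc
Mmp8: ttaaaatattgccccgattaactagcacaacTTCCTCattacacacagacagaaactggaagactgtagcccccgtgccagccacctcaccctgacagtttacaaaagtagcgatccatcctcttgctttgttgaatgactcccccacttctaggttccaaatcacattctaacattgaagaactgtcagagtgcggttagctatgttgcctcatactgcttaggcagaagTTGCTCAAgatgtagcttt

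The PU.1-type letters were in all 3 primary promoters and in those of Ltf and Mmp8, 5 of 9, against 23.3% of 32851 promoter windows of this length. The C/EBP-type letters were in Ngp, with 2 matches, Ltf and Mmp8, 3 of 9, against 9.56% of all windows. No base lay in matches of both motifs. A RUNX-type motif (TGTGGT, both strands) was in Lyz2 only, 1 of 9, against 14.05%. A motif of the NF-kappaB type and the letters TATAAA, both searched on both strands, were in 0 of 9, against 1.41% and 12.4%. A longer run that contains the PU.1-type letters, GAGGAAGT, was searched only after these sequences had been read. It was in Mpo, Elane, Prtn3 and, on the other strand, Mmp8, 4 of 9, against 2.44% of all windows. Because it was chosen from these promoters, its count says nothing beyond them. A match is a run of letters and was not tested as a binding site.

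**Figure D1:**
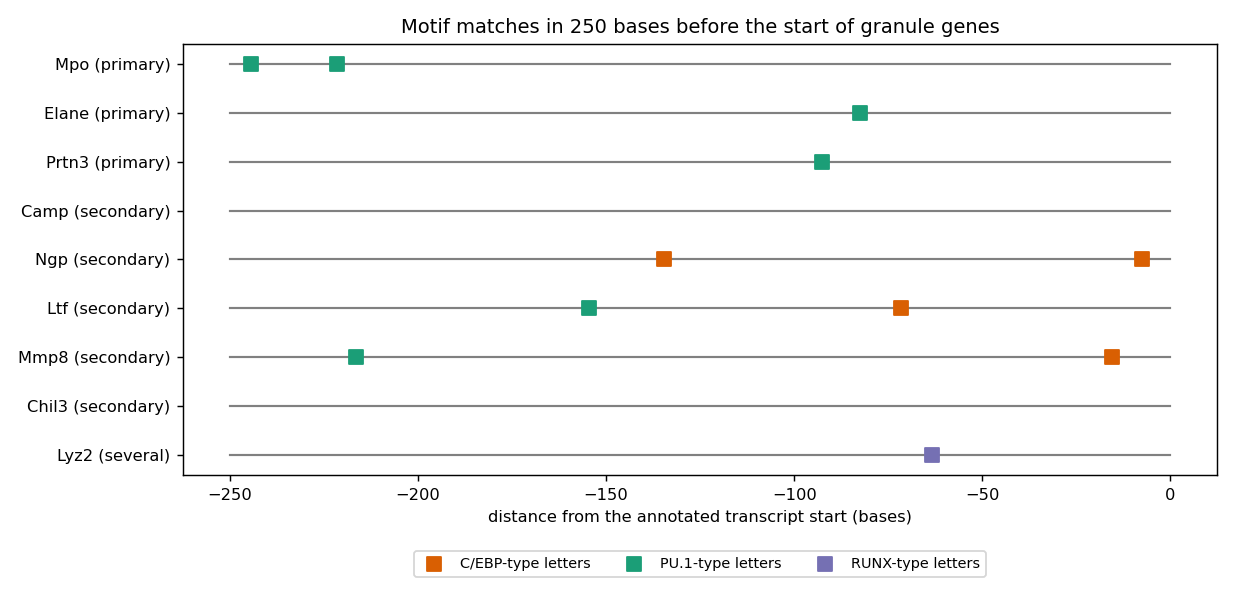
Matches of 3 motifs in the 250 bases before the transcript start of 9 granule genes, by distance from the start in bases. PU.1-type letters lie in 5 promoters, C/EBP-type letters in 3 and RUNX-type letters in 1, and Camp and Chil3 hold none.

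Among the members of the 3 classes, the secondary granule genes had the highest median change after CLP in both genotypes. In knockout-labelled lung the median log2 change was 2.29 for the primary class, 2.95 for the secondary class and 0.74 for Mmp9, beside -0.11 over all 11859 genes tested. In wild-type lung it was -0.03, 2.07 and 1.65, beside -0.03 over all genes. Without array 3 of knockout-labelled sham the medians in knockout-labelled lung were 1.84, 3.64 and 0.76. For the 9 other secondary and 4 other tertiary granule genes described below, the medians in knockout-labelled lung were 1.71 and 1.35. In wild-type lung they were 0.74 and 0.94, so the order of these lists was the other way there. These medians are descriptions with no test, no difference between classes was tested, and the primary genes were below the filter. A log2 change is on the scale of log2(signal + 3.47), which understates the change of weak signals. In whole tissue, a change in the number of cells that hold a transcript and a change of transcript per cell cannot be told apart.

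**Figure D2:**
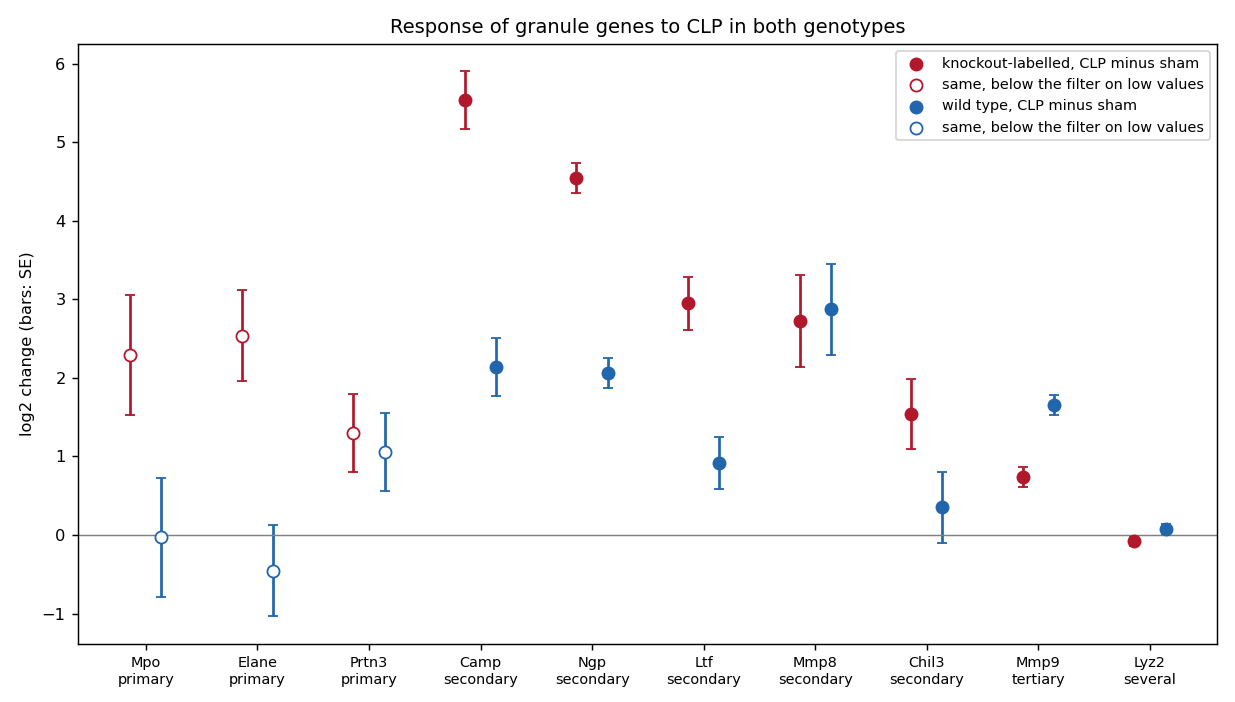
Log2 change after CLP against sham for each granule gene (points, with SE as bars), knockout-labelled in red and wild type in blue. Open points mark the primary genes, which did not pass the filter. Camp, Ngp and Ltf lie higher in knockout-labelled lung, Mmp9 lies higher in wild-type lung, and Mmp8 lies at 2.73 and 2.87.

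Of the 7 granule genes tested, 6 rose after CLP in knockout-labelled lung at an adjusted p under 0.05 (limma, Benjamini-Hochberg over 24574 probe sets), where 10.4% of all probe sets rose. In wild-type lung 4 of 7 rose, Camp, Ngp, Mmp8 and Mmp9, where 0.814% of all probe sets rose. The wild-type count was 2 without array 1 or 2 of wild-type sham, and also without array 1 or 3 of wild-type CLP. The difference between the responses was called for 4 of 7, where 4.05% of all probe sets were called: Camp, Ngp and Ltf responded more in knockout-labelled lung, and Mmp9 responded less. That count was 2, Camp and Ngp, without array 2 or 3 of wild-type sham, array 2 or 3 of wild-type CLP, or array 2 of knockout-labelled CLP.

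Without array 3 of knockout-labelled sham, 6 of 7 granule genes again rose in knockout-labelled lung, where 13.2% of all probe sets rose. The changes there were 4.99 for Camp, 4.56 for Ngp, 2.54 for Ltf, 3.64 for Mmp8, 2.31 for Chil3, 0.76 for Mmp9 and -0.05 for Lyz2. The difference between the responses was then called for 5 of 7, with Chil3 joining the 4 above, where 13.4% of all probe sets were called. With this array 4.05% were called for that difference.

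Among primary granule genes, Mpo encodes myeloperoxidase, which makes hypochlorous acid in the phagosome. Its signal (1415960_at) was 24.2, 62.7 and 417.7 in knockout-labelled CLP and 17.6, 27.7 and 6.6 in knockout-labelled sham, compared with 10.6, 20.7 and 20.9 in wild-type CLP and 21.6, 24.0 and 9.3 in wild-type sham. Array 3 of knockout-labelled CLP was the highest, array 2 was next, and array 1 lay within the range of knockout-labelled sham. Elane encodes neutrophil elastase. It (1422928_at) read 12.98, 22.3 and 121.6 in knockout-labelled CLP and 4.9, 4.1 and 0.8 in knockout-labelled sham, compared with 2.1, 1.8 and 4.0 in wild-type CLP and 4.8, 4.1 and 5.6 in wild-type sham. All 3 arrays of knockout-labelled CLP were above the other 9.

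Prtn3 encodes proteinase 3, a serine protease close to elastase, and is the direct neighbour of Elane in the annotation. It (1419669_at) read 23.7, 62.4 and 164.9 in knockout-labelled CLP and 20.2, 23.5 and 28.2 in knockout-labelled sham, compared with 13.6, 18.4 and 18.8 in wild-type CLP and 9.7, 4.6 and 5.3 in wild-type sham. Knockout-labelled CLP and sham overlapped, while wild-type CLP lay above wild-type sham. For all 3 genes the order of the knockout-labelled CLP arrays was the same, with array 3 highest and array 1 lowest.

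The 3 primary genes stayed below the filter, so they were fitted without it as an alternative. There the response in knockout-labelled lung was 2.29 ± 0.76 (SE) for Mpo (adjusted p = 0.063), 2.54 ± 0.58 for Elane (adjusted p = 0.011) and 1.30 ± 0.50 for Prtn3 (adjusted p = 0.11). Elane alone passed the threshold, and its difference between the responses, 2.99 ± 0.82, did not (adjusted p = 0.094). After CLP the knockout-labelled lungs exceeded wild type by 2.64 for Elane (adjusted p = 0.0086), 1.73 for Prtn3 (adjusted p = 0.035) and 2.18 for Mpo (adjusted p = 0.076). Without array 3 of knockout-labelled CLP the class median of the response was 1.19, against 2.29 with it. Of a wider list tied to primary granules, 2 of 3 genes on the array were tested. Ctsc was not called, and Serpinb1a rose in knockout-labelled lung (1.01 ± 0.26, adjusted p = 0.013), where 10.4% of all probe sets rose. Serpinb1a encodes an inhibitor of neutrophil serine proteases, not a protease packed into these granules. Its call was lost when array 2 of the knockout-labelled sham group was omitted (adjusted p = 0.057), and both genes passed when array 3 of that group was omitted. Ctsg, the gene for cathepsin G, was below the filter at 9.9, 35.6 and 126.1 in knockout-labelled CLP, and at most 14.3 on the other arrays.

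**Figure D3:**
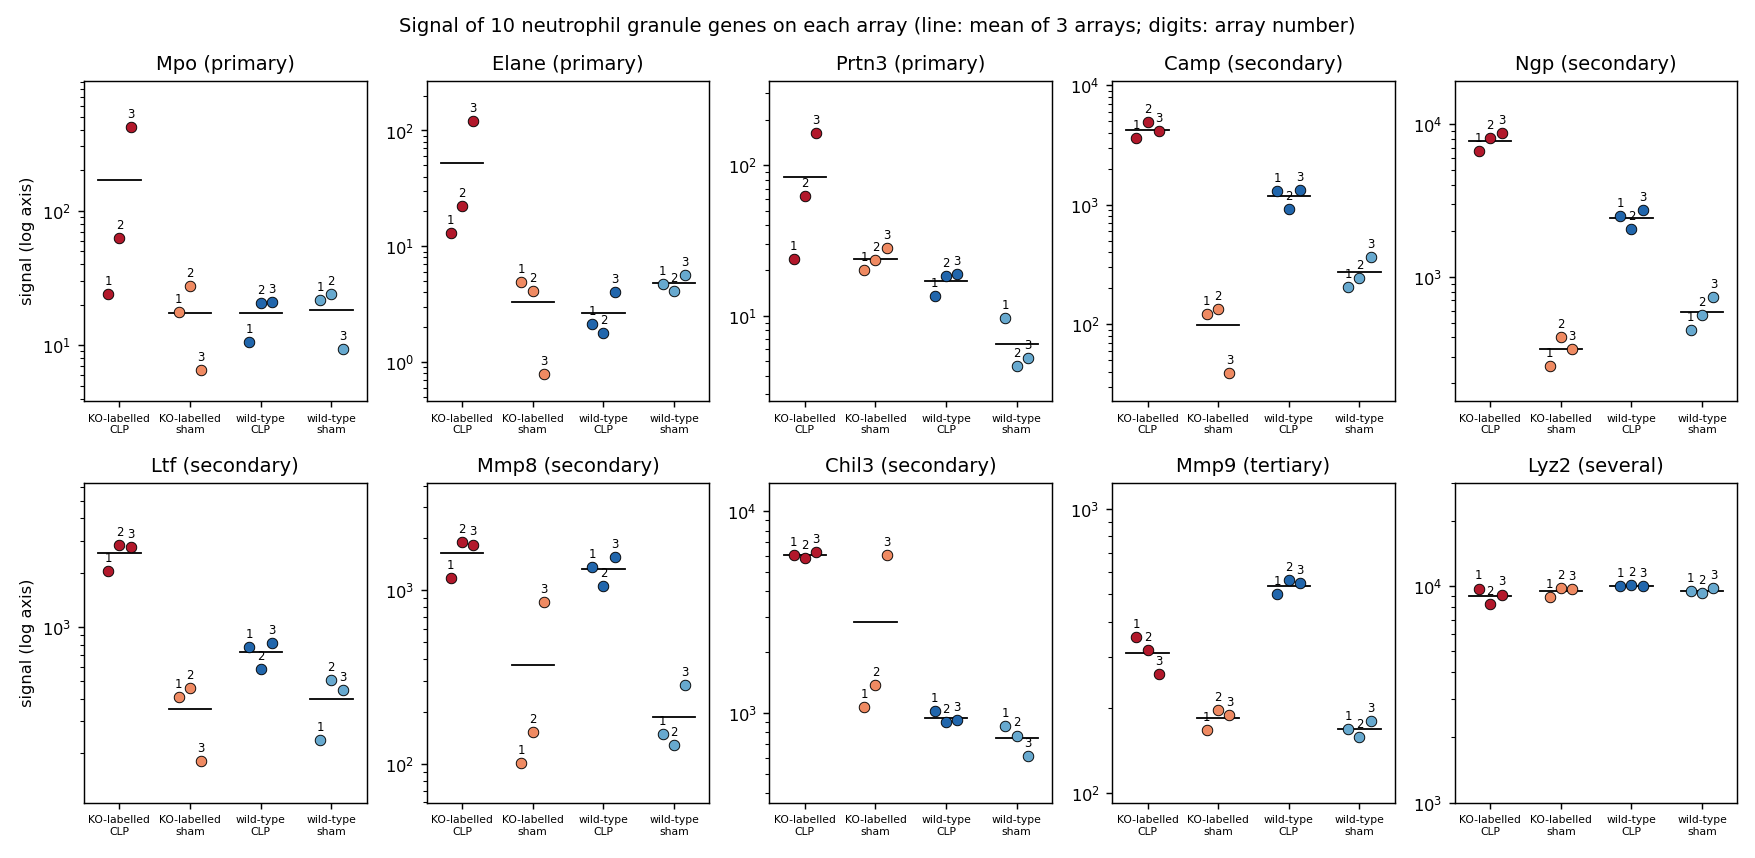
Signal of each granule gene on each array (points, numbered 1 to 3; log axis, with its own range in each panel) in knockout-labelled CLP, knockout-labelled sham, wild-type CLP and wild-type sham. Lines are means of 3 arrays. The secondary genes Camp and Ngp fall into 4 groups that do not overlap, whereas the primary genes are high mainly on arrays 2 and 3 of knockout-labelled CLP.

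Camp and Ngp showed the largest responses of the granule genes tested in knockout-labelled lung. Camp encodes the antimicrobial peptide precursor cathelicidin. Its signal (1419691_at) was 3624.9, 4911.4 and 4102.4 in knockout-labelled CLP and 122.5, 134.0 and 38.7 in knockout-labelled sham, compared with 1308.2, 925.6 and 1321.4 in wild-type CLP and 204.9, 241.9 and 365.7 in wild-type sham. No arrays of any 2 groups overlapped, and knockout-labelled sham was the lowest group. The ratio of group means was 42.8 in knockout-labelled lung and 4.38 in wild-type lung. Camp rose by 5.54 ± 0.37 log2 units in knockout-labelled lung (limma adjusted p = 5.5e-06) and by 2.14 ± 0.37 in wild-type lung (adjusted p = 0.015), and the responses differed by 3.40 ± 0.52 (adjusted p = 0.010). Knockout-labelled lung was 1.83 higher after CLP (adjusted p = 0.0031), and after sham its difference from wild type was -1.56 (adjusted p = 0.019). With array 3 of knockout-labelled sham left out, the responses of Camp differed by 2.85 (adjusted p = 4.7e-04) and its sham difference was -1.02 (adjusted p = 0.012). The wild-type rise of Camp lost its call without array 1 or 2 of wild-type sham or array 1 or 3 of wild-type CLP (adjusted p up to 0.099).

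Ngp encodes neutrophilic granule protein, a cystatin-like protein of mouse neutrophils. Its signal (1418722_at) was 6656.5, 8045.8 and 8699.5 in knockout-labelled CLP and 261.3, 405.0 and 336.2 in knockout-labelled sham, compared with 2496.7, 2051.2 and 2716.6 in wild-type CLP and 448.3, 563.1 and 739.7 in wild-type sham. The order of groups was that of Camp, again with no overlap. Ngp rose by 4.54 ± 0.19 in knockout-labelled lung (adjusted p = 1.8e-07) and by 2.07 ± 0.19 in wild-type lung (adjusted p = 3.4e-04), and the responses differed by 2.48 ± 0.27 (adjusted p = 0.0021). After sham the knockout-labelled lungs differed from wild type by -0.79 (adjusted p = 0.023), and after CLP by 1.69 (adjusted p = 8.4e-05). The genotype difference after sham was called for 2 of 7 granule genes, Camp and Ngp, both lower in knockout-labelled lung, where 3.86% of all probe sets were lower. Both calls were lost without array 2 or 3 of wild-type sham, and that of Ngp also without array 1 of knockout-labelled sham. With only the 2 groups compared neither passed (adjusted p = 0.085 for Camp and 0.075 for Ngp).

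Ltf encodes lactoferrin, which binds iron. Its signal (1450009_at) was 2030.6, 2863.9 and 2782.8 in knockout-labelled CLP and 411.0, 457.3 and 181.1 in knockout-labelled sham, compared with 778.1, 587.3 and 814.4 in wild-type CLP and 237.1, 510.6 and 448.0 in wild-type sham. The sham groups overlapped, and both CLP groups lay above them. Ltf rose by 2.95 ± 0.33 in knockout-labelled lung (adjusted p = 1.4e-04). In wild-type lung its change of 0.92 ± 0.33 missed the threshold (adjusted p = 0.38), although it passed in a fit of only the 2 groups compared (0.045) and with array weights (0.021). The responses differed by 2.03 ± 0.47 (adjusted p = 0.035), and by 1.62 without array 3 of knockout-labelled sham, its lowest array (adjusted p = 0.014). When single arrays were left out, that call was lost in 7 of 12 fits (adjusted p at most 0.10), those without array 2 or 3 of wild-type sham, any array of wild-type CLP, or array 2 or 3 of knockout-labelled CLP. It was also lost without the filter (adjusted p = 0.054) and with moderation without a trend (0.058).

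Mmp8, neutrophil collagenase, rose in both genotypes. Its signal (1449366_at) was 1173.1, 1887.9 and 1830.8 in knockout-labelled CLP and 101.6, 152.3 and 852.9 in knockout-labelled sham, compared with 1367.2, 1052.3 and 1544.7 in wild-type CLP and 148.3, 128.0 and 283.3 in wild-type sham. The CLP groups overlapped, the sham groups overlapped, and array 3 of knockout-labelled sham was the highest sham array. The rise was 2.73 ± 0.58 in knockout-labelled lung (adjusted p = 0.0048) and 2.87 ± 0.58 in wild-type lung (adjusted p = 0.039). The responses differed by -0.14 with a 95% interval of -1.93 to 1.65 (adjusted p = 0.94). With array 3 of knockout-labelled sham left out the response there was 3.64 and the difference 0.77 (adjusted p = 0.24). The wild-type call was lost without any of the 6 wild-type arrays and without array 2 of knockout-labelled CLP, with adjusted p-values up to 0.19. It was also lost with quantile normalisation (adjusted p = 0.051), without the filter (0.058) and with moderation without a trend (0.079).

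Chil3 (older name Chi3l3) encodes the chitinase-like protein Ym1, which mouse alveolar macrophages also make. Its signal (1419764_at) was 6027.3, 5827.4 and 6276.3 in knockout-labelled CLP and 1069.7, 1377.4 and 6048.3 in knockout-labelled sham, compared with 1016.8, 904.7 and 916.2 in wild-type CLP and 861.4, 771.4 and 610.0 in wild-type sham. Array 3 of knockout-labelled sham read like the CLP arrays of that genotype, and the other sham arrays of the genotype lay above every wild-type array. Chil3 rose by 1.54 ± 0.45 in knockout-labelled lung (adjusted p = 0.023), with groups that overlapped, and its change in wild-type lung was 0.35 ± 0.45 (adjusted p = 0.94). The responses differed by 1.19 with an interval of -0.19 to 2.57 (adjusted p = 0.29). With array 3 of knockout-labelled sham left out, Chil3 rose by 2.31 (adjusted p = 1.4e-06) and the responses differed by 1.96 (adjusted p = 2.8e-04). The call in knockout-labelled lung was lost without array 1 or 2 of knockout-labelled sham or array 2 or 3 of knockout-labelled CLP (adjusted p up to 0.091), and with only the 2 groups compared (0.11). With array weights the difference of the responses was 1.80 (adjusted p = 0.0024). The sham difference of Chil3 was 1.48 (adjusted p = 0.063), and it was called without array 1 or array 3 of the knockout-labelled sham group (1.96 and 0.71, adjusted p = 0.016 and 0.0060) and with array weights (0.83, adjusted p = 0.026).

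After CLP Chil3 was 2.67 ± 0.45 higher in knockout-labelled lung (adjusted p = 0.0011), and the probe set that Chil3 shares with Chil4 was 3.66 higher (adjusted p = 6.3e-04). The probe set of Chil4 alone, a near copy of Chil3, read 0.8 to 25.1 and was not tested. Of 9 alveolar macrophage markers 6 were higher in knockout-labelled than in wild-type lung after CLP, and 1, Car4, was lower (-0.40, limma adjusted p = 0.020). Of all probe sets 12.6% were higher and 16.9% lower. After sham 1 of the 9, Marco, was higher in knockout-labelled lung (3.28, adjusted p = 0.0045), where 4.48% of all probe sets were. Without array 3 of knockout-labelled sham, Marco was again higher after sham (2.49, limma adjusted p = 0.0050), where 5.28% of all probe sets were. Siglecf, Mrc1, Plet1, Cidec and Atp6v0d2 were then called lower, from -0.38 for Plet1 to -1.26 for Cidec, where 4.68% of all probe sets were. The difference between the responses was called by limma for 0 of 9, with 4 at an unadjusted p under 0.05, and for 7 of 9 without array 3 of knockout-labelled sham. In that fit 13.4% of all probe sets were called, against 4.05% with the array. The summed signal of the 9 markers was 4429 to 5149 in knockout-labelled CLP and 2729 to 5148 in knockout-labelled sham, against 3195 to 3386 in wild-type CLP and 3374 to 3581 in wild-type sham, with array 3 at the top of knockout-labelled sham. By group mean Car4 gave the largest part of this sum. It was at 1278 and 1533 in knockout-labelled CLP and sham, and at 1672 and 1747 in wild-type CLP and sham. Which cells of the lung gave the signal of Car4 was not tested. The part of these markers in the values of Chil3 was not tested.

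Mmp9 encodes gelatinase B, the enzyme after which gelatinase granules are named, and was the only granule gene whose response was called smaller in knockout-labelled lung. Its signal (1416298_at) was 354.0, 317.8 and 261.5 in knockout-labelled CLP and 166.4, 195.9 and 188.7 in knockout-labelled sham, compared with 500.5, 561.3 and 548.4 in wild-type CLP and 168.4, 157.4 and 178.8 in wild-type sham. The CLP groups did not overlap with each other or with sham, and the sham groups overlapped. Mmp9 rose by 0.74 ± 0.13 in knockout-labelled lung (adjusted p = 0.0015) and by 1.65 ± 0.13 in wild-type lung (adjusted p = 4.6e-05), and the responses differed by -0.91 ± 0.18 (adjusted p = 0.023). After CLP the knockout-labelled lungs differed from wild type by -0.79 (adjusted p = 8.5e-04).

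A second Mmp9 probe set (1448291_at) rose by 1.63 in knockout-labelled lung (adjusted p = 0.0023) and 2.63 in wild-type lung (adjusted p = 0.0014), with a difference of -0.999 that missed the threshold (adjusted p = 0.19). With the mean of both probe sets the difference was -0.96 (adjusted p = 0.069). For the first probe set, 7 of the 12 fits that each omitted an array lost the call (adjusted p at most 0.077), those without any array of wild-type sham, array 2 or 3 of wild-type CLP, or array 2 of either knockout-labelled group.

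Lyz2 encodes lysozyme, which macrophages and alveolar type 2 cells also express. Its signal (1423547_at) was 9740.8, 8224.2 and 9139.7 in knockout-labelled CLP and 8900.1, 9789.1 and 9727.6 in knockout-labelled sham, compared with 9973.8, 10082.3 and 9969.6 in wild-type CLP and 9507.1, 9263.0 and 9831.6 in wild-type sham. No contrast was called for it: its change was -0.07 in knockout-labelled lung (interval -0.21 to 0.07) and 0.07 in wild-type lung (interval -0.07 to 0.21). After CLP the knockout-labelled lungs differed by -0.15 (adjusted p = 0.093), a difference called with array weights (0.0047) or without array 1 of knockout-labelled CLP (0.026). Only 12 to 31 probe sets of an array read higher, so a rise may be compressed there, which was not tested. Its near copy Lyz1 was not called for CLP on any of its 3 probe sets, and 1 of them (1439426_x_at) was higher in knockout-labelled lung after sham by 0.54 (adjusted p = 0.0013) and after CLP by 0.34 (adjusted p = 0.0091).

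After CLP, the genotype difference was called for 5 of 7 granule genes, where 29.5% of all probe sets were called. Camp, Ngp, Ltf and Chil3 were higher in knockout-labelled lung, where 12.6% of all probe sets were higher, and Mmp9 was lower, where 16.9% were. The medians by class were 2.18 for the primary genes, 1.81 for the secondary genes and -0.79 for Mmp9, beside -0.06 over all genes. After sham they were -0.14, -0.22 and 0.12, beside 0.01, and without array 3 of knockout-labelled sham 0.31, -0.48 and 0.10.

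Markers of mature neutrophils were set beside these values. Of 7 tested, 5 rose in knockout-labelled lung and 5 in wild-type lung, with medians of 1.19 and 1.63. Of all probe sets, 10.4% and 0.814% rose in that order. Array 3 of knockout-labelled sham was the highest of its group for these markers. Without it 7 rose in knockout-labelled lung and 6 in wild-type lung, with medians of 1.89 and 1.63, so the order of the medians turned. In that fit 13.2% and 1.44% of all probe sets rose. The wild-type count was 2 or 3 without array 1 or 2 of wild-type sham or any array of wild-type CLP. Among them was Il1r2, a decoy receptor for interleukin 1, which rose by 4.06 in knockout-labelled lung (adjusted p = 1.9e-05) and 3.04 in wild-type lung (adjusted p = 4.9e-04). Trem1, a receptor that amplifies inflammation, rose by 2.22 (adjusted p = 1.7e-04) and 2.31 (adjusted p = 0.0012) in the same order. The difference between the responses was called by limma for 0 of 7, with 1 of 7 at an unadjusted p under 0.05 and a median of 0.00, which was 0.51 without array 3 of knockout-labelled sham. The genotype difference after CLP was called for 0 of 7, with 0 of 7 at an unadjusted p under 0.05, and for 1 without array 1 of knockout-labelled CLP. Of all probe sets, 29.5% were called with that array and 31.9% without it. The mean of the 7 markers relative to wild-type sham was 1.60 to 2.08 on knockout-labelled CLP arrays and 1.57 to 1.87 on wild-type CLP arrays, which overlap. The mean of the 5 secondary granule genes was 3.09 to 3.46 on knockout-labelled CLP arrays and 1.42 to 1.81 on wild-type CLP arrays, which do not. S100a8 and S100a9 were the most strongly hybridised markers, and 1 of them was the highest signal on every CLP array of both genotypes. S100a8 read 12542.7 to 14823.4 in knockout-labelled CLP and 14724.7 to 15084.9 in wild-type CLP. S100a9 read 12438.6 to 14411 and 13898.7 to 15253.5 in that order. Array maxima over the series ran from 11975 to 15253.5. This limits how far a further rise, or a difference between genotypes after CLP, could show for these markers.

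**Figure D4:**
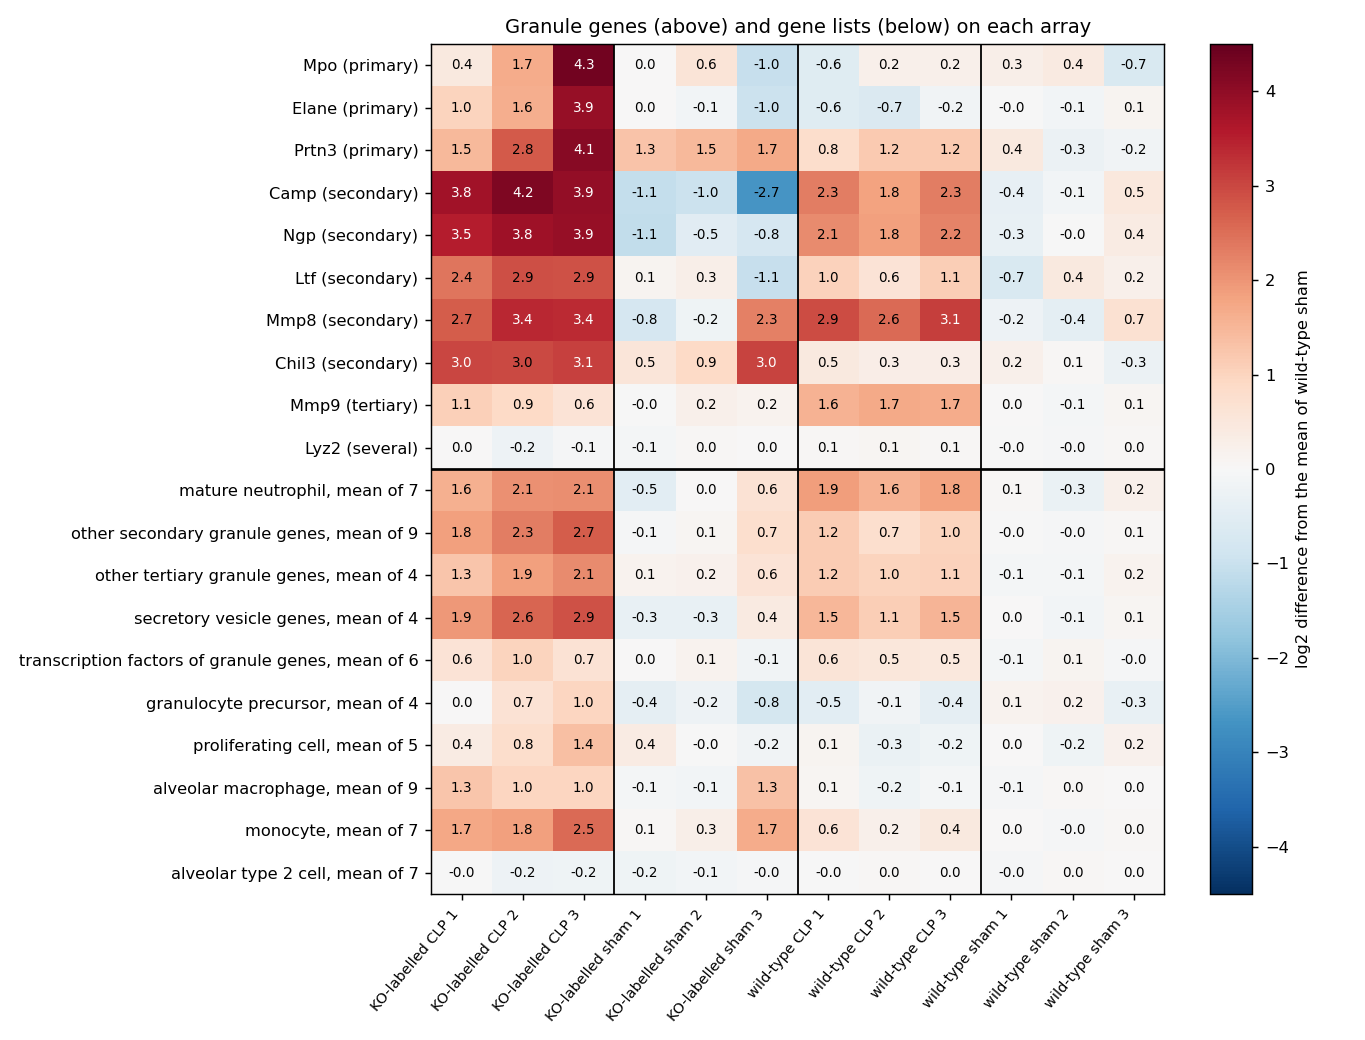
Log2 difference of each granule gene (upper rows) and of the mean of each gene list (lower rows) from the mean of wild-type sham, on each of 12 arrays. Red is higher and blue is lower. Camp, Ngp, Ltf and Chil3 are higher on every knockout-labelled than on every wild-type CLP array, while Mmp8 and the means of the mature neutrophil markers overlap between them.

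Granulocyte precursor markers gave weak signals. Of 4 on the array 1 was tested, Fcnb, which encodes ficolin B, and it was not called. Fcnb read 39.4, 37.2 and 27.2 on knockout-labelled CLP arrays 1, 2 and 3, so array 3 was the lowest. Ms4a3, a marker of these precursors, read 17.8, 30.0 and 76.4 on the same arrays and at most 35.0 elsewhere. Gfi1, a transcription factor of these precursors, read 5.8, 8.7 and 1.2 there, again lowest on array 3. The mean of the 4 markers was 0.03, 0.66 and 0.95 above wild-type sham, an order that Ms4a3 and Ctsg had and Fcnb and Gfi1 did not. Ctsg is itself the primary granule gene given above, so this mean is not separate from that class.

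Some markers of monocytes and of proliferating cells were higher in knockout-labelled lung after CLP as well. After sham 2 of 7 monocyte markers were higher in knockout-labelled lung, Plac8 (1.63, limma adjusted p = 3.7e-04) and Csf1r (0.37, adjusted p = 0.0076). Fn1 was lower (-0.61, adjusted p = 0.028), a call kept in 7 of 12 fits that each omitted an array. Of all probe sets 4.48% were higher and 3.86% lower after sham. After CLP 4 of 7 monocyte markers were higher in knockout-labelled than in wild-type lung, where 12.6% of all probe sets were higher. The median difference of the 7 was 1.87, beside 1.81 for the secondary granule genes. The mean of the 7 was 1.73 to 2.53 above wild-type sham on knockout-labelled CLP arrays and 0.24 to 0.62 on wild-type CLP arrays, which do not overlap. After CLP against sham 10.4% of all probe sets rose in knockout-labelled lung and 0.814% in wild-type lung. Monocyte markers rose for 5 of 7 in knockout-labelled lung and for 0 of 7 in wild-type lung, where 2 had an unadjusted p under 0.05. These counts were 6 and 1 without array 3 of knockout-labelled sham, where 13.2% and 1.44% of all probe sets rose. Without array 2 of that group 3 rose in knockout-labelled lung, where 7.86% of all probe sets rose. The difference between the responses was called for 1 of 7 monocyte markers, Vcan (2.61, limma adjusted p = 0.040), where 4.05% of all probe sets were called. That call was kept in 2 of 12 fits that each omitted an array. Without array 3 of knockout-labelled sham Ccr2, F13a1, Ms4a4c and Fn1 were called as well, where 13.4% of all probe sets were. Of 5 proliferation markers, 4 were higher in knockout-labelled than in wild-type lung after CLP, with a median of 0.99, where 12.6% of all probe sets were higher. The count was 2 without array 3 of knockout-labelled CLP or array 2 of wild-type CLP, where 9.57% and 8.15% of all probe sets were higher. After CLP against sham 3 of 5 rose in knockout-labelled lung, among them Ccnb2 (1.02, adjusted p = 0.011), and limma called 0 of 5 in wild-type lung, with 0 of 5 at an unadjusted p under 0.05. The knockout-labelled count was 1 without array 2 of that sham group or array 2 or 3 of that CLP group, and 2 without array 3 of that sham group. The mean of the proliferation markers was 0.36, 0.79 and 1.36 on the knockout-labelled CLP arrays. The part of these lists in the granule values was not tested. Of 5 eosinophil markers 1 was tested and not called, although it passed in knockout-labelled lung when array 3 of knockout-labelled sham was left out, and 4 were below the array median on every array. Limma called 0 of 2 red blood cell markers in either response, with 0 at an unadjusted p under 0.05 in knockout-labelled lung and 1 in wild-type lung, and 1 fell in knockout-labelled lung when array 1 of its sham group was omitted.

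Other genes of the same granule classes were counted as well. Of 9 other secondary granule genes, 8 rose in knockout-labelled lung and 2 in wild-type lung, with medians of 1.71 and 0.74. Of all probe sets, 10.4% and 0.814% rose in that order. After CLP 8 of 9 were higher in knockout-labelled than in wild-type lung, with a median of 1.22, where 12.6% of all probe sets were higher. The mean signal of these genes in wild-type sham ran from 22.2 for Ptx3 to 4173.7 for Hp, so some were strong without CLP. Which cells of the lung gave these signals was not tested. Lcn2, which withholds iron from bacteria, rose by 2.87 in knockout-labelled lung (adjusted p = 1.3e-04), and Cd177, a neutrophil surface protein, rose by 3.28 (adjusted p = 1.2e-04). Olfm4, a marker of a neutrophil subset, rose by 4.13 in knockout-labelled lung (adjusted p = 2.0e-04) and 2.92 in wild-type lung (adjusted p = 0.015). The exception in knockout-labelled lung was Hp, for haptoglobin, at 0.25 (adjusted p = 0.17). The responses differed by limma for 1 of 9, Slpi (1.40, adjusted p = 0.0499), a protease inhibitor. That call was lost without the filter (adjusted p = 0.074) and in 10 of 12 fits that each omitted an array. Without array 3 of knockout-labelled sham 8 of 9 were called for the difference, with a median of 1.46 against 1.06 with it. The share of all probe sets called was then 13.4%, against 4.05% with that array. Without array 1 of knockout-labelled CLP 5 were called, where 10.6% of all probe sets were. The wild-type count was 0 without array 1 of wild-type sham or array 1 or 3 of wild-type CLP, and 1 without array 2 of wild-type sham. It was 4 when array 3 of knockout-labelled sham was omitted, where 1.44% of all probe sets rose.

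Of 4 other tertiary granule genes, all 4 rose in knockout-labelled lung and 1, Adam8, in wild-type lung, with medians of 1.35 and 0.94. Of all probe sets, 10.4% and 0.814% rose in that order. In wild-type lung 2 of the 4 rose in the fits without array 3 of knockout-labelled sham or array 1 or 3 of knockout-labelled CLP. There 1.44%, 1.28% and 0.989% of all probe sets rose. Adam8, a membrane metalloprotease, rose by 1.41 in knockout-labelled lung (adjusted p = 6.8e-04) and 1.63 in wild-type lung (adjusted p = 0.0031). The integrin subunit gene Itgam rose by 1.84 (adjusted p = 0.0012) in knockout-labelled lung, and changed by 1.01 in wild-type lung (adjusted p = 0.22). The difference between the responses was called for 0 of 4 by limma, with 0 of 4 at an unadjusted p under 0.05 and a median of 0.41 (1 of 4 and 0.58 without array 3 of knockout-labelled sham), so Mmp9 lay below the median of these genes. All 4 of 4 secretory vesicle genes rose in knockout-labelled lung and 2 in wild-type lung, or 1 without array 1 or 3 of wild-type CLP. The difference between the responses was called for 1 of 4, Alpl (1.63, limma adjusted p = 0.047), where 4.05% of all probe sets were called. That call was kept in 2 of 12 fits that each omitted an array. Without array 3 of knockout-labelled sham Fpr2 and Fcgr3 were called as well, where 13.4% of all probe sets were. Cd14, a lipopolysaccharide receptor, rose by 3.54 in knockout-labelled lung (limma adjusted p = 4.6e-06) and 2.88 in wild-type lung (adjusted p = 4.6e-05). Alpl averaged 97.4 and 30.7 in knockout-labelled CLP and sham, and 81.0 and 93.9 in wild-type CLP and sham. After sham Alpl was lower in knockout-labelled lung (-1.52, adjusted p = 0.0067) and Cd14 was higher (0.95, adjusted p = 0.019). Of all probe sets 3.86% were lower and 4.48% higher. After CLP 2 of 4, Fpr2 (1.76) and Cd14 (1.61), were higher there, where 12.6% of all probe sets were.

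Of 5 transcription factor genes tested, Cebpb, Cebpd and Spi1 rose in knockout-labelled lung, where 10.4% of all probe sets rose. Spi1, which encodes PU.1, rose by 1.54 (limma adjusted p = 1.4e-04). It was the 1 of 5 whose responses differed (1.01, adjusted p = 0.042), where 4.05% of all probe sets were called. That call was lost without the filter (adjusted p = 0.062) and in 10 of 12 fits that each omitted an array. Without array 3 of knockout-labelled sham the difference was 1.24 (adjusted p = 0.0016). In that fit the responses also differed for Cebpd (0.91, adjusted p = 0.045) and, the other way, for Cebpa (-0.72, adjusted p = 0.037). There 13.4% of all probe sets were called. Cebpb rose by 1.13 in knockout-labelled lung (adjusted p = 0.0014) and 1.24 in wild-type lung (adjusted p = 0.010), and Cebpd by 1.998 (adjusted p = 8.7e-05) and 1.28 (adjusted p = 0.013). In wild-type lung both calls were lost without array 1 of wild-type sham or array 1 or 3 of wild-type CLP, and that of Cebpd also without array 3 of wild-type sham or array 2 of wild-type CLP. Runx1 and Cebpa were not called in either response. After CLP 2 of 5, Spi1 (0.90, limma adjusted p = 0.0027) and Runx1 (1.34, adjusted p = 2.7e-04), were higher in knockout-labelled than in wild-type lung. Of all probe sets 12.6% were higher there.

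Likeness between profiles was measured as the root mean square difference of log2 values centred on their own mean, over 12 arrays, a description with no test. The nearest pair of granule genes was Mpo and Elane at 0.48, within the primary class, followed by Camp and Ngp at 0.57, within the secondary class. Prtn3 lay as near to Chil3 (0.81) as to Mpo and Elane (0.83 each), and Camp and Chil3, both secondary, were 2.08 apart. Genes of a class were thus not always nearest to each other.

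**Figure D5:**
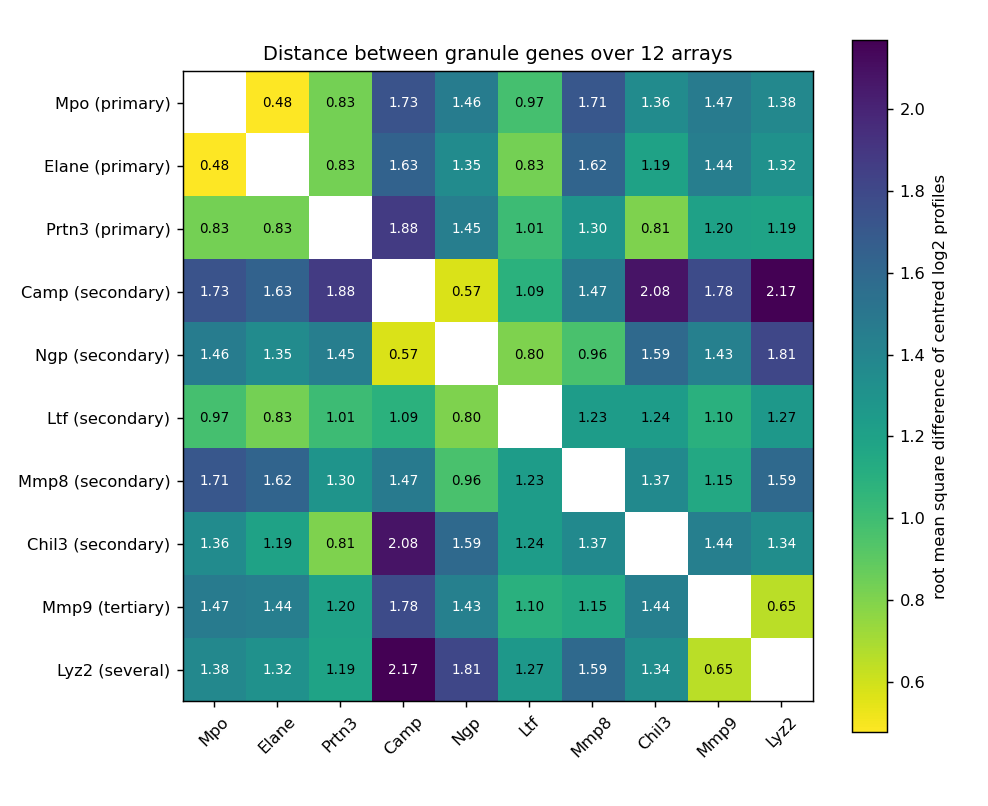
Root mean square difference between centred log2 profiles of each pair of granule genes over 12 arrays, in log2 units. Mpo with Elane (0.48) and Camp with Ngp (0.57) are the nearest pairs, and Camp with Lyz2 (2.17) is the most distant.

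Among 11859 tested genes, those nearest to Camp were Ngp (0.57), Cxcl1 (0.57), Il1r2 (0.68), Tmem252 (0.78) and Marcksl1 (0.89). Cxcl1 is a neutrophil chemokine. Those nearest to Mmp9 were Slc2a3 (0.25), Pglyrp1 (0.27), Stk17b (0.28), Msrb1 (0.36) and Rassf5 (0.36). For Chil3 they were Zfp935 (0.34), Ccr2 (0.36), Igkv9-120 (0.37), Olr1 (0.37) and Clec4a3 (0.38), where Ccr2 is the receptor that brings monocytes into tissue. For Mpo they were Ikbke (0.65), Hmox1 (0.67), Plat (0.68), Adamts9 (0.69) and Steap4 (0.69).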

How the data were processed

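Biotin-labelled RNA of 12 whole-lung samples was hybridised to Affymetrix arrays. Linear signal intensity per probe set is what the authors deposited; GCOS, MAS5 and Affymetrix Expression Console are named per the submitters' processing notes, with no role or version. The mean between the lowest and highest 2% was 150.001 on every array, so values had been scaled to 1 target; they carry no detection calls. The number of arrays limits the precision.

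Of 45101 probe sets, 64 controls were left out. Log2(signal + 3.47), with 10% of the median of array medians as pseudocount, was fitted with limma 3.58.1 (R 4.3.3) as 4 group means with an intensity trend, over the 24574 probe sets whose signal exceeded the median of its array on 3 or more of 12 arrays. P-values were adjusted by Benjamini-Hochberg within each of 5 contrasts and called under 0.05. The tests were tested on simulated data. Of the probe sets, 34945 had 1 gene symbol, 932 several and 9160 none, and 34741 were matched to RefSeq (GRCm38.p6). Genes with several symbols were not named, except the probe set shared by Chil3 and Chil4. No coordinates were taken from the probe sets.

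The members, gene lists and tests were chosen with earlier results of these data known. All members were named. Of each list, up to 4 called genes with the smallest p in a response, or exceptions, could be named. Some list genes called for a genotype difference were named as well. The 5 motifs were chosen after the arrays' values had been seen, and the longer PU.1-type run after the promoters had been read. Alternatives were other scalings, pseudocounts, filters, moderation, weights per array, a block for the replicate number, fits on only the 2 groups compared, omission of suffixed probe sets, averaging over the probe sets of a gene, and omission of each array in turn. For the gene lists, omission of each array in turn and of the filter was added after the data had been seen.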

Additional observations from a re-analysis of the deposited data

Results flagged for a closer look

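The response to CLP differed between the genotypes for 4 granule genes by the test of the difference itself (limma, adjusted p under 0.05). It was larger in knockout-labelled lung by 3.40 log2 units for Camp, 2.48 for Ngp and 2.03 for Ltf, and the difference for Mmp9 was -0.91. The differences for Camp and Ngp passed in all 12 of the 12 fits that each omitted an array, and those for Ltf and Mmp9 in 5 of 12 each.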

How the results depend on the processing

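No called result changed direction under the alternatives run. The median response of the secondary class in knockout-labelled lung was 3.61 with array weights. The response of Mmp9 in knockout-labelled lung was 0.97 with arrays centred on their medians and 1.19 with the mean of its probe sets; in wild-type lung it was 1.76 and 2.14 in that order. The sham difference of Mmp9 was 0.25 with the mean of its probe sets, and no granule gene (0) was called for the sham difference with only the 2 groups compared. The cause was not tested. With 1 array left out, 5 to 6 granule genes were called for the response in knockout-labelled lung, 2 to 4 in wild-type lung, 2 to 5 for the difference of the responses, 0 to 3 for the sham difference and 5 to 6 for the difference after CLP. In the same order, the share of all probe sets called in these fits was 20.3% to 35.7%, 0.208% to 1.76%, 0.435% to 13.4%, 4.6% to 10.6% and 18.5% to 36.6%. The median response of the secondary class in knockout-labelled lung then ran from 2.86 to 3.64, the highest value without array 3 of knockout-labelled sham. Without the filter, 7 granule genes were called for the response in knockout-labelled lung and 3 in wild-type lung, where 14.4% and 0.375% of all probe sets were called. With the replicate number as a block, 6 granule genes were called in knockout-labelled lung, 4 in wild-type lung, 4 for the difference of the responses, 2 for sham and 5 for CLP. Same-numbered arrays deviated together with correlations of -0.10 to 0.12, so the numbers were not taken to pair the samples. The absence of detection calls limits what can be said of the primary granule genes, which lay below the array median on most arrays.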
